A study of Mus musculus with 2 samples.

Results

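Early hormone-lineage cells of the embryonic mouse pancreas were taken as the epithelial cells with the transcript of Chga, the granule protein chromogranin A. A barcode counted as a Chga cell when it held at least 3 Chga UMIs (unique molecular identifiers, each standing for 1 captured transcript). Its barcode also had to pass a quality filter, with 500 genes and 1000 UMIs as the minimum and 10% mitochondrial UMIs as the maximum. The epithelial gate asked for at least 2 UMIs over Epcam, Cdh1, Krt8, Krt18 and Cldn6, fewer than 3 over Col3a1 and Col1a2, and fewer than 2 over Upk3b and Lrrn4. There were 112 Chga cells among 1235 gated epithelial barcodes, and 6944 barcodes in all. Of these, 89 came from the control library and 23 from the knockout-labelled library. The members were thus chosen by measured Chga UMIs and by the epithelial gate, so the level of Chga itself describes the choice, and differences from the other epithelial cells are described without a test.

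The series holds 2 libraries of pancreatic cells from C57BL/6 mouse embryos at embryonic day 13.5, made with droplet-based single-cell RNA sequencing that counts the 3' ends of transcripts. One library is from a control embryo, and the other is from an embryo titled knockout, which the series title names Dpy30∆P. Dpy30 is a shared subunit of the COMPASS complexes, which methylate lysine 4 of histone H3. The sources used here give neither the Cre line, nor the removed part of Dpy30, nor the genotype of the control embryo. Both libraries were sorted for live cells that excluded the dye 7-AAD, and each group is 1 embryo and 1 library, so no test between groups was possible.

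Hormone cells of the pancreas arise from epithelial progenitors that pass through a short phase with Neurog3, the transcription factor that starts the endocrine programme. Cells leaving that phase stop dividing, make dense-core granules packed with chromogranins, and turn on peptide hormones together with the enzymes that cut and amidate them. In the early mouse pancreas the first such cells include many with glucagon, and single cells can hold transcripts of several hormones.

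The 5 marker genes lie on 4 chromosomes of the mouse genome GRCm38 (GENCODE M21 annotation), and all are protein-coding. Chga is at chr12:102554969-102565028 on the plus strand and Chgb at chr2:132781278-132795079 on the plus strand. Gcg is at chr2:62474530-62483650, Pyy at chr11:102106676-102107832 and Isl1 at chr13:116298281-116309689, all on the minus strand. Promoter sequence was examined because the granule genes and the hormone genes stood higher together in these cells. RefSeq promoter entries (build GRCm38.p6) were found for 13 of Chga and the 14 granule genes and for 11 of the 12 hormone genes; Vgf, Cpe and Ins2 had no entry. The 250 bases before each start were searched on both strands for TGACGTCA, the palindromic cyclic AMP response element, and for CAGATG, an E-box of the kind that NEUROD1 binds. The motifs were searched separately, and overlapping matches were not removed. The lists were counted by gene, where a match in any entry of a gene was enough, and the background by promoter entry. TGACGTCA stood before 3 of the 13 granule genes (Chgb, Pcsk1 and Scg2) and 1 of 11 hormone genes (Sst), beside 1.55% of all 32851 promoter entries. The E-box stood before 4 of 11 hormone genes (Cck, Gcg, Iapp and Ins1) and 0 of 13 granule genes, beside 14.4% of all promoter entries. A match is only a run of letters in this window, and binding was not measured. The 30 bases around the match, in capitals, are shown for the 3 granule genes, since these carry the motif that is rare in promoters at large. The stretches of Chgb and Scg2 lie inside the gene as GENCODE annotates it, although they precede the RefSeq start.
Chgb, chr2:132781559-132781588, plus strand: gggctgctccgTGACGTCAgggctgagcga
Scg2, chr1:79440076-79440105, minus strand: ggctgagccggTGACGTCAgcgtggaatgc
Pcsk1, chr13:75089768-75089797, plus strand: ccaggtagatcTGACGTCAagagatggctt
The matches begin 72, 68 and 78 bases before the RefSeq start of Chgb, Scg2 and Pcsk1. For the hormones Gcg and Iapp, which many of the same cells share, the proximal promoter is shown with the E-box in capitals.
Gcg, chr2:62483654-62483803, minus strand: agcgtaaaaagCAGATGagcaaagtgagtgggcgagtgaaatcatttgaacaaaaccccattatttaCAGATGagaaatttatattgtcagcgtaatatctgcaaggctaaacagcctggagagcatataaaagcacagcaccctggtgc
Iapp, chr6:142298275-142298422, plus strand: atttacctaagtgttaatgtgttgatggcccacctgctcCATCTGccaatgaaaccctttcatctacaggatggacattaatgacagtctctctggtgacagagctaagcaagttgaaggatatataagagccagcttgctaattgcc
The matches begin 139 and 83 bases before the start of Gcg and 111 bases before the start of Iapp.

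The control Chga cells held between 2717 and 32941 UMIs (median 7624), 758070 UMIs in all. The 620 control epithelial cells with 0 Chga UMIs were deeper, with a median of 13121.5 UMIs. The 23 knockout-labelled Chga cells held between 3305 and 11011 UMIs (median 7398). When each cell was thinned to 5000 UMIs, the median number of genes was 2112.5 in control Chga cells, 1875 in control cells with 0 Chga UMIs and 2068 in knockout-labelled Chga cells. The libraries share 22 barcode sequences, and 1 Chga cell carries such a barcode. The embryos differed in sex by their transcripts: Xist had 0 UMIs in the control Chga cells and was found in 23 of 23 knockout-labelled ones, and Ddx3y was found in 43 of 89 and 0 of 23. Sex and group therefore cannot be told apart. Haemoglobin transcripts, from red blood cells, gave 163.6 CPM in control Chga cells and 377 CPM in knockout-labelled ones, and their part in the library comparisons was not tested. A doublet score marked 2 control Chga cells and 0 knockout-labelled ones, and these were kept.

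Dpy30, the targeted gene, was read at 269 CPM (UMIs summed over the cells, per 1000000 of their total) in control Chga cells, with 0, 2 and 12 UMIs in the lowest, median and highest cell. It was read at 450 CPM in the knockout-labelled cells, with 0, 4 and 6 UMIs. The log2 ratio of (CPM + 5), the scale of every ratio given here, was 0.73 for knockout-labelled over control cells (95% interval 0.35 to 1.10, which like all intervals here covers counting error only). Since the deleted part is not given, a count of 3' ends does not check the label. In epithelial cells with 0 Chga UMIs the same ratio was 0.23, from 259 beside 220 CPM.

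Chga cells made up 11.8% of control epithelial cells (89 of 757, exact Clopper-Pearson interval 9.55 to 14.3) and 4.81% of knockout-labelled ones (23 of 478, 3.07 to 7.13). The ratio of the shares was 0.409 (0.263 to 0.638). After thinning to 5000 UMIs the shares were 8.65% (62 of 717) and 3.90% (18 of 461), a ratio of 0.452 (0.271 to 0.753). The intervals of the 2 shares do not overlap in either case, but with 1 embryo each the spread between embryos is unknown.

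Chga itself ranged from 3 to 43 UMIs in the control cells, with a median of 9. The threshold cut a thin tail: 35 control epithelial cells held 1 Chga UMI, 13 held 2, 7 held 3 and 8 held 4. The 13 cells just below the threshold carried Chgb in 12 cells (0, 27 and 103 UMIs in the lowest, median and highest) and Neurog3 in 8. The 7 cells at exactly 3 UMIs carried Chgb in 7 (9, 25 and 133 UMIs) and Neurog3 in 3. Cells on both sides of the threshold thus held Chgb at similar levels.

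The other 4 markers were present, but not in all of the cells. Chgb, the partner granin of Chga, was found in 88 of 89 control cells, with 0, 89 and 562 UMIs in the lowest, median and highest cell. It reached 14080.5 CPM, beside 32.2 CPM in epithelial cells with 0 Chga UMIs, a log2 ratio of 8.56. Isl1, a LIM-homeodomain factor of hormone cells, was found in 63 cells (0, 5 and 47 UMIs) at 892 CPM, beside 9.06 CPM. Pyy, the peptide YY hormone, was found in 48 cells (0, 1 and 389 UMIs) at 3026 CPM, beside 6.82 CPM. Gcg, the glucagon gene, was found in 23 cells (0, 0 and 714 UMIs) at 4825 CPM, beside 1.45 CPM. Chgb thus ran through nearly all Chga cells, whereas Pyy and Gcg rested on part of them. As a measure of free RNA, the share of control mesenchymal cells with a UMI was 2.13% for Gcg, 4.39% for Pyy and 6.27% for Chgb, at a median of 6827.5 UMIs per cell. All 5 markers together, with Isl1 and Chga, had a UMI in 274 of 798 such cells, at most 8 in a cell. That is more than Gcg, Pyy and Chgb account for, so Isl1 is not read here as confined to hormone cells.

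**Figure D1:**
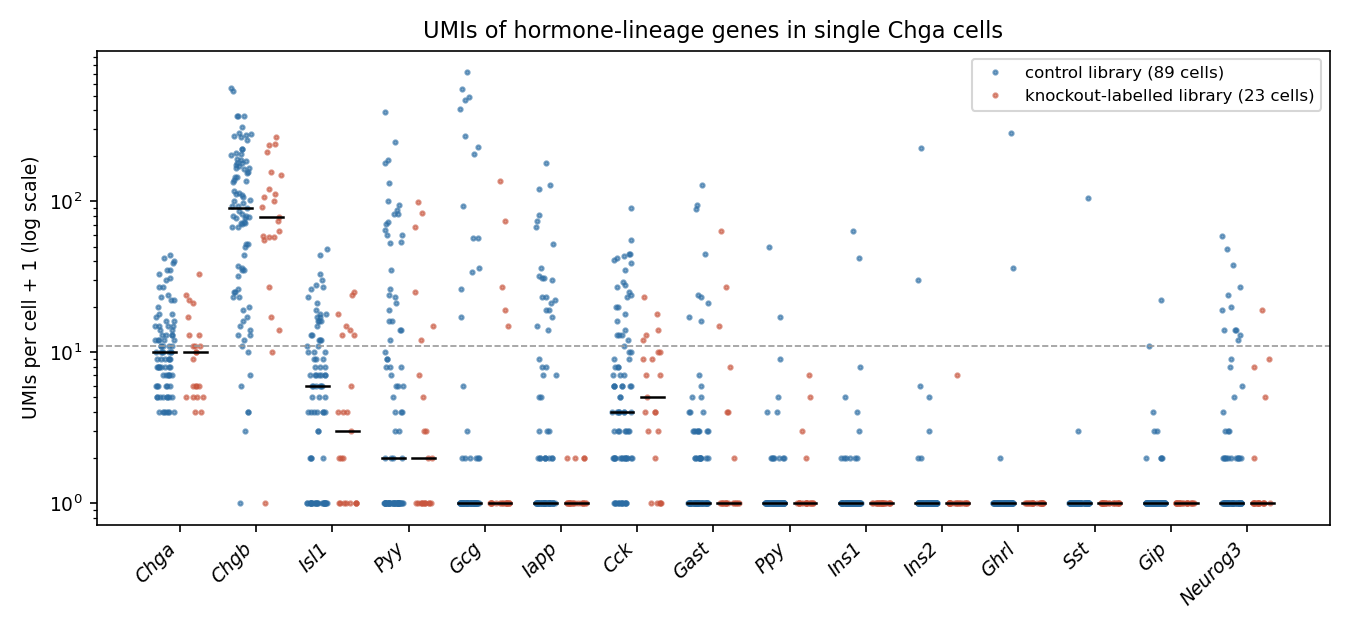
UMIs per cell plus 1 (log axis) of hormone-lineage genes in the 89 control (blue) and 23 knockout-labelled (red) Chga cells, with 1 point per cell, black bars at the medians and a dashed line at 10 UMIs. Chgb is high in nearly every cell of both libraries, whereas each hormone is high in a few cells, and no knockout-labelled cell has more than 1 Iapp UMI.

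Markers of other cell types were scarce in the control Chga cells. The 5 mesenchymal markers gave 14 UMIs in all, at most 2 in a cell, with 1 marker at 0. The 5 immune markers gave 10 UMIs (3 markers at 0), the 4 endothelial markers 4 UMIs (2 at 0), the 3 mesothelial markers 1 UMI and the 3 gut markers 3 UMIs. The 8 neural markers gave 32 UMIs over 26 cells, at most 3 in a cell, with 4 markers at 0. The 4 haemoglobin genes stood at a summed 144.9 CPM in control epithelial cells with 0 Chga UMIs, near their level in the Chga cells. In the knockout-labelled library all 4 were at least 2-fold lower in Chga cells than in cells with 0 Chga UMIs (median log2 ratio -3.30). Between libraries, their median ratio in cells with 0 Chga UMIs was 4.39 for knockout-labelled over control. The part of this in the comparisons of the knockout-labelled library was not tested. The 8 acinar and tip markers gave 95 UMIs, or 125 CPM, and 2 control cells held at least 10 of them. In the 23 knockout-labelled Chga cells these 8 markers gave 109 UMIs, or 614 CPM, and 2 cells held at least 10 of them.

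The measured genes that make and fill secretory granules were all higher. Over all 11224 genes tested, 13.4% were at least 2-fold higher in control Chga cells than in epithelial cells with 0 Chga UMIs, 9.15% were at least 2-fold lower, and the median log2 ratio was 0.14. Of the 14 granule and processing genes, 13 were measured (at least 20 UMIs over both sets), all 13 were at least 2-fold higher and their median log2 ratio was 4.79. Genes scarce in the cells with 0 Chga UMIs, such as Scg2 and Ptprn, were measured through the Chga cells. That fixed their direction, so the count is a description, as are the counts of higher genes in the lists below. Pcsk2, the convertase that cuts proglucagon, had 0, 2 and 34 UMIs in the lowest, median and highest cell, and stood at 835 CPM beside 3.36 (log2 ratio 6.65). Cpe, the carboxypeptidase that trims the cut peptides, was found in 83 of 89 cells at 551 CPM beside 4.47. Pcsk1n, which encodes the convertase inhibitor proSAAS, stood at 522 CPM beside 1.45, and Pam, the amidating enzyme, at 352 CPM beside 7.94. The granins Scg3 and Scg2 stood at 325 and 81.8 CPM, beside 2.35 and 0.224. Scgn, a calcium-binding protein of endocrine cells, stood at 193 CPM beside 1.01, and the granule membrane protein gene Ptprn at 92.3 CPM beside 0.224. Pcsk1, a convertase of proinsulin, stood at 117 CPM beside 2.01. Vgf was not measured, with 3.96 CPM in the Chga cells.

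The 15 genes with the highest ratios included 3 outside the hormone, granule and factor lists. Slc38a5, a glutamine transporter known from embryonic and amino-acid-stimulated alpha cells, was found in 88 of 89 cells (0, 26 and 269 UMIs) at 4778 CPM beside 17.8 (log2 ratio 7.71). Fam183b was found in 83 cells (0, 8 and 21 UMIs) at 890 CPM beside 8.28. Tmem27, the gene of collectrin, was found in 50 cells at 468 CPM beside 1.12. The rest of the list was Gcg, Chgb, Pyy, Iapp, Gast, Pcsk2, Pax6, Pcsk1n, Ghrl, Isl1, Cpe and Ins2. The place of Ghrl is uncertain, since its ratio lay between 2.49 and 7.48 over the alternatives. The reference also leaves out cells with 1 or 2 Chga UMIs. Ttr, transthyretin, was abundant in both sets, at 4936 CPM beside 872. Slc38a5 and Fam183b therefore marked nearly as many Chga cells as Chgb did, and Tmem27 a part of them.

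Genes of regulated release were higher as well. Of 18 exocytosis genes, 13 were measured, 12 were at least 2-fold higher and 0 lower, with a median log2 ratio of 2.35. Cplx2 (complexin) stood at 237 CPM beside 28.7, Syt13 (a synaptotagmin) at 223 beside 23.4, Rab3a (a vesicle GTPase) at 104 beside 4.59 and Snap25 (a SNARE protein) at 55.4 beside 0.224. Of 10 channel genes, 6 were measured and all 6 were higher, with a median of 3.40. Abcc8, the sulfonylurea receptor subunit of the ATP-sensitive potassium channel, was found in 62 of 89 cells at 190 CPM beside 11.3. Its pore partner Kcnj11 had 0 UMIs in the Chga cells, which allows up to 3.96 CPM. The calcium channel genes Cacna2d1 and Cacna1a stood at 134.6 and 111 CPM, beside 4.81 and 4.92. Of 10 genes of the neuronal cytoskeleton, 8 were measured and 4 were higher (Map1b, Tubb3, Elavl4 and Mapt), with a median of 1.37. Map1b, a microtubule-associated protein, was found in 89 of 89 cells, with 1, 7 and 25 UMIs in the lowest, median and highest, at 896 CPM beside 40.5. In the 14 genes of the secretory pathway only Sec11c (signal peptidase) passed 2-fold, and the list median was 0.38, which turned to -0.02 under median-of-ratios scaling.

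**Figure D2:**
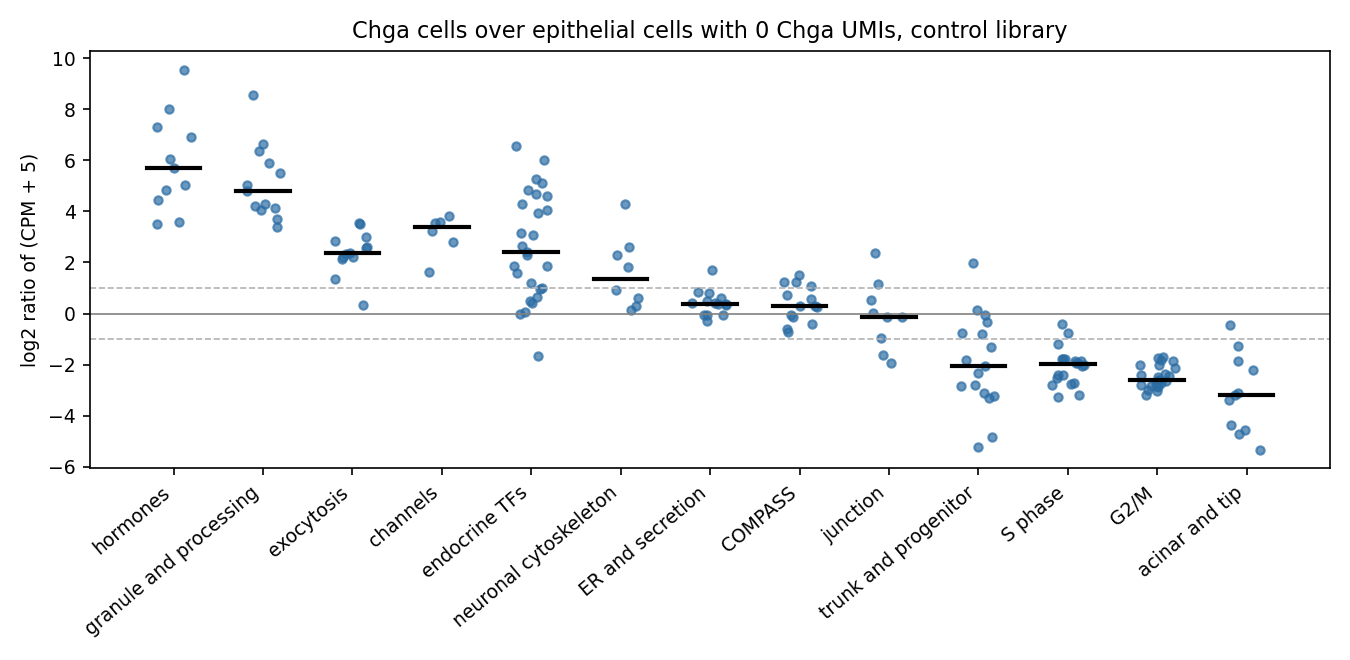
Log2 ratio of (CPM + 5) of control Chga cells over control epithelial cells with 0 Chga UMIs, by gene list; each point is a measured gene, black bars are list medians and dashed lines mark 2-fold. The hormone and granule lists lie wholly above the upper line (medians 5.69 and 4.79), and all 24 G2/M genes lie below the lower one.

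Hormone transcripts were concentrated in single cells, and no hormone ran through the whole set. All 11 measured genes of the 12-hormone list were at least 2-fold higher than in cells with 0 Chga UMIs (median log2 ratio 5.69). Of these, 2 had 0 UMIs in the cells with 0 Chga UMIs. Hormones scarce there, Gcg among them, were measured through the Chga cells. That fixed their direction, so the count is a description. A cell was counted for a hormone when it held at least 10 UMIs of it, a level met by 0 of 798 control mesenchymal cells for every hormone. Pyy reached it in 28 of 89 control Chga cells (31.5%), Cck in 25, Iapp in 21 (23.6%, 15.2 to 33.8) and Gcg in 15 (16.9%). Gast, the gastrin gene, reached it in 9 cells, Ins1, Ins2, Ppy, Ghrl and Gip in 2 each, Sst in 1 and Npy in 0, which allows up to 3.37%. The order depends on the level asked for: with 3 UMIs the shares were 58.4% for Cck, 47.2% for Pyy, 31.5% for Iapp, 18.0% for Gcg and 18.0% for Gast, and with 30 UMIs they were 10.1%, 20.2%, 12.4%, 14.6% and 4.49%. The 2 insulin genes are near copies, and reads could be split between them. Among the control cells with 0 Chga UMIs, 33 of 620 held a hormone at that level, 32 of them Cck.

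The cells often held more than 1 hormone. In 31 control Chga cells no hormone reached 10 UMIs, in 27 cells 1 did, in 17 cells 2, in 8 cells 3 and in 6 cells 4. Of the 15 Gcg cells, 12 also counted for Iapp, the gene of islet amyloid polypeptide, and 10 for Pyy. Pyy and Iapp were shared by 13 cells. By contrast 2 of the 15 Gcg cells and 0 of the 21 Iapp cells counted for Cck. The cell with the most Gcg held 714 UMIs of it and 177 of Iapp.

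Several of the rarer hormones rested on a single cell. One cell held 280 Ghrl UMIs, 88.6% of the total over the control Chga cells, and another held 104 of Sst (98.1%). A further cell held 225 Ins2 UMIs (84.3%). The level of such a gene therefore describes 1 cell and not the set. Gcg was less uneven, with 19.5% of its UMIs in its highest cell. The Chga cells held 90.9% of all Gcg UMIs of the control epithelium, 96.4% of Iapp, 95.8% of Gast and 86.8% of Pyy. They held only 34.4% of Cck and 32.4% of Ghrl, so most transcripts of these 2 genes lay in epithelial cells with fewer than 3 Chga UMIs. The 2 genes differed there. Of the 620 control cells with 0 Chga UMIs, 32 held at least 10 Cck UMIs and 0 held as many of Ghrl. Most of the remaining Ghrl lay in cells with 1 or 2 Chga UMIs.

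The 15 cells with at least 10 Gcg UMIs differed in level from the other 74 control Chga cells in a set of genes of alpha cells. Irx2 and Irx1, homeobox genes of alpha cells, stood at 133 and 69.9 CPM in the Gcg cells and at 16.7 and 13.3 in the others. Slc38a5 stood at 10299.85 beside 3330.05 CPM, Ttr at 9169.5 beside 3826, Tmem27 at 1041 beside 318 and Pcsk2 at 1708 beside 606. Pax4 was at 0 UMIs in the Gcg cells beside 110 CPM, Fev stood at 19.1 beside 191 and Nkx6-1 at 6.35 beside 150. Chgb was lower in the Gcg cells, at 8027 beside 15668 CPM, as was Neurog3, at 19.1 beside 551. The 5 knockout-labelled cells with at least 10 Gcg UMIs set beside the other 18 gave Slc38a5 at 10737 beside 3084 CPM, Tmem27 at 1442 beside 187 and Irx2 at 103 beside 28.8, with Pax4, Fev and Nkx6-1 at 0 UMIs beside 180.15, 187 and 252. Since Gcg chose these cells, and each set came from 1 library, the differences are given as levels only. Over the whole control set, 7 of 8 alpha-cell genes were measured and all 7 were at least 2-fold higher than in cells with 0 Chga UMIs (median 4.06).

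The 9 cells with at least 10 Iapp UMIs but fewer than 10 of Gcg were a mixed set. Single cells among them held 104 Sst, 21 Gip or 29 Ins2 UMIs. Isl1 stood in the 9 cells at 2102 CPM, Pdx1 at 475 and Nkx6-1 at 217. These levels are given as a description, without a set of other cells beside them. Pyy stood at 3458 CPM in the same cells. Of 11 genes of beta cells, 7 were measured over the whole set and 5 were at least 2-fold higher than in cells with 0 Chga UMIs (Ins1, Ins2, Iapp, Pdx1 and Pax4), with a median of 1.86. Mafa and Ucn3, genes of mature beta cells, had 1 UMI each.

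The 31 cells without a hormone at 10 UMIs were still rich in granule transcripts. Chgb stood at 20736 CPM in them and at 11792 CPM in the 58 cells with a hormone, and Chga at 1830.2 beside 1283 CPM. Fev stood at 211 beside 137 CPM and Pax4 at 129 beside 72.7, whereas Isl1 stood at 454 beside 1042. High chromogranin transcripts were thus not limited to cells with an abundant hormone transcript.

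**Figure D3:**
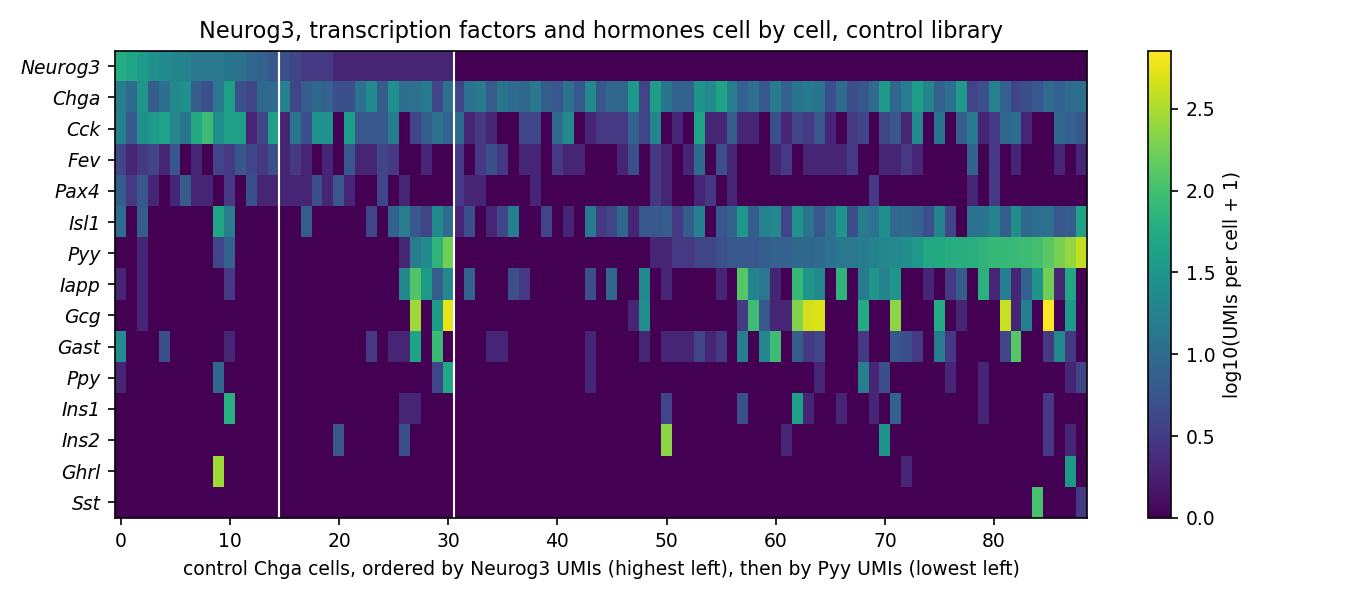
UMIs of 15 genes (log10 of UMIs + 1, colour scale) in the 89 control Chga cells, 1 column per cell, ordered by Neurog3 and then by Pyy; white lines part cells with at least 5, with 1 to 4 and with 0 Neurog3 UMIs. The 15 cells at the left hold Cck, Fev and Pax4 and hardly any Gcg, and most Pyy, Iapp and Gcg lies in cells without Neurog3.

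Transcription factors of the endocrine programme were mostly higher. Of 31 factors, 27 were measured, 20 were at least 2-fold higher and 1 was lower than in cells with 0 Chga UMIs, with a median of 2.42. Pax6, a paired-box factor that islet hormone genes depend on, was found in 85 of 89 cells (0, 5 and 26 UMIs) at 702 CPM beside 2.57 (log2 ratio 6.54). Neurod1, the helix-loop-helix factor downstream of Neurog3, was found in 83 cells (0, 4 and 31 UMIs) at 605 CPM beside 12.9. Runx1t1 stood at 472 CPM beside 13.4, Pou3f4 at 336 beside 3.91 and Fev at 156 beside 1.57. Pax4, a paired-box factor of the beta lineage, was found in 33 cells at 87.1 CPM beside 20.4. The factor that was lower was Sox4, at 84.4 beside 276 CPM. Pax6 and Neurod1 were thus nearly as widespread as Chgb, whereas Pax4 was found in fewer cells.

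Programmes of the other epithelium were low. Of 17 genes of the progenitor trunk, 11 were at least 2-fold lower and 1, the keratin gene Krt7 (541 beside 133 CPM), was higher; the median was -2.05. Hes1, the Notch target that holds progenitors back, was found in 3 of 89 cells at 5.28 CPM beside 385 (log2 ratio -5.24). Sox9, a factor of bipotent progenitors, stood at 30.3 beside 324 CPM. Spp1, the osteopontin gene, stood at 79.2 beside 2396 CPM, and 71.7% of its UMIs came from 1 cell that the doublet score marked. Onecut1 had 0 UMIs, at least 9.69-fold lower than the 38.4 CPM of the other epithelium when set at 3 UMIs. Of 11 acinar and tip genes, 10 were lower and 0 higher (median -3.17; with genes at 0 set at 3 UMIs, -3.13 and 9 lower). They include the enzyme genes Ctrb1 at 29.0 beside 1360 CPM and Cpa1 at 44.9 beside 1309.7. The genes with the lowest ratios also included Spink1, Pnliprp1, Cyr61, Vtn, Gsta3, Ccnd1, Cldn10, Adamts1, Nupr1 and Serpini2, between -5.28 and -3.86. Of 9 junction genes, Cldn4 (292 beside 52.9 CPM) and Cdh2 were higher and Cldn3 (88.4 beside 353) and Cgn lower, with a median of -0.12.

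Genes of the cell cycle were low in almost every Chga cell. All 24 G2/M genes and 18 of 20 S-phase genes were at least 2-fold lower than in cells with 0 Chga UMIs, with medians of -2.62 and -1.99 (the latter -1.94 with a gene at 0 set at 3 UMIs). After thinning to 5000 UMIs, at least 5 UMIs of the G2/M list were found in 2 of 78 control Chga cells (2.56%, 0.312 to 8.96), beside 286 of 599 cells with 0 Chga UMIs (47.7%). For the S-phase list the counts were 7 of 78 (8.97%) and 430 of 599 (71.8%). One of the few cells with such transcripts, marked by the doublet score, held 163 G2/M UMIs beside 3 of Chga and 25 of Chgb. Cyclin D1 (Ccnd1) stood at 10.6 beside 291 CPM and cyclin D2 (Ccnd2) at 50.1 beside 386. The inhibitor gene Cdkn1b stood at 51.5 beside 14.0 CPM. Cdkn1a stood at 520 beside 279 CPM, below 2-fold, and the median of the 7 genes of cycle exit was -0.02, which lay between -0.80 and 0.37 over the alternatives.

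Of 14 COMPASS genes, the methyltransferases Kmt2a, Kmt2c and Kmt2d and the demethylase Kdm6a were at least 2-fold higher in control Chga cells (log2 ratios 1.09, 1.22, 1.24 and 1.51) and 0 were lower; the list median of 0.29 turned to -0.08 under median-of-ratios scaling. Under that scaling Kdm6a alone of these stayed at least 2-fold higher (1.15), with Kmt2a at 0.70, Kmt2c at 0.83 and Kmt2d at 0.88, and 1 other gene of the list was lower. Dpy30 itself was read at 269 beside 220 CPM, a log2 ratio of 0.28 that turned to -0.14 under the same scaling.

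The scaling matters to such small ratios. Total-count scaling put the median of all genes at 0.14, and median-of-ratios scaling put it at -0.18. The 1502 higher and 1027 lower genes became 835 and 1718 under median-of-ratios scaling, and 1108 and 1742 when haemoglobin, mitochondrial and ribosomal protein genes were left out of the total. Under median-of-ratios scaling the hormone, granule, exocytosis, channel, cytoskeleton, alpha-cell and G2/M lists kept their counts of higher and lower genes. The factors went from 20 higher to 18, the beta-cell genes from 5 higher and 0 lower to 4 and 1, the junction genes from 2 and 2 to 1 and 3, and the trunk genes from 11 lower to 13.

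The Chga cells were next set beside the 129 control cells with at least 5 Neurog3 UMIs and fewer than 3 of Chga, the nearest earlier stage. Of 7833 genes tested, 9.84% were at least 2-fold higher and 7.79% lower in the Chga cells. All 13 measured granule genes were higher again (median 4.06, or 3.89 with a gene at 0 set at 3 UMIs), as were 10 of 11 hormones. Of these, 1 granule gene and 3 hormones had 0 UMIs in the Neurog3 cells, so that their direction was fixed. The exception among the hormones was Cck, at 1167 CPM in Chga cells and 1177 in Neurog3 cells (log2 ratio -0.01, -0.13 to 0.11). Of 27 factors, 12 were higher and 7 lower. Pax6 stood at 702 beside 26.2 CPM, Isl1 at 892 beside 77.0, Neurod1 at 605 beside 139 and Fev at 156 beside 6.77. Neurog3 stood at 441 beside 3458 CPM, and the rule for the Neurog3 cells fixed that direction. Pax4 was also lower (87.1 beside 197), as were Hes6 (203 beside 474) and Sox4 (84.4 beside 673). Nkx2-2 (256 beside 444) and Insm1 (157 beside 173) differed by less than 2-fold. The Chga cells thus held more granule, hormone and Pax6 transcripts and fewer of several early factors.

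The trunk and cycle genes divided by stage. Spp1 and Hes1 were still at 2268 and 305 CPM in the Neurog3 cells and at 79.2 and 5.28 in the Chga cells, while Sox9 had already a lower level in the Neurog3 cells (83.8 CPM beside 324 in cells with 0 Chga UMIs). Of 24 G2/M genes, 22 were at least 2-fold lower in Chga cells than in Neurog3 cells, and of 19 S-phase genes 11 were. In thinned cells the G2/M count of 2 of 78 stood beside 22 of 122 Neurog3 cells (18.0%). Cdkn1a and Gadd45a, genes of growth arrest, were highest in the Neurog3 cells of these sets, at 1225 and 1054 CPM beside 520 and 141 in the Chga cells.

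**Figure D4:**
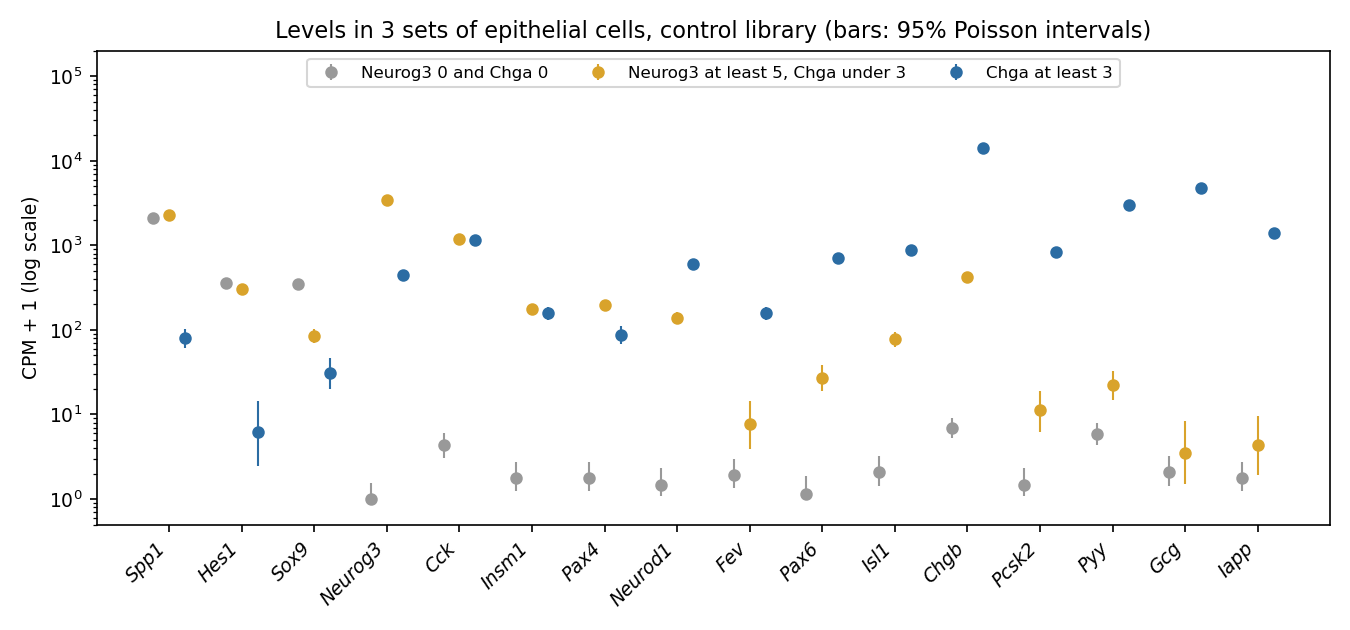
CPM plus 1 (log axis) of 16 genes in 3 sets of control epithelial cells, with 95% Poisson intervals: 412 cells with 0 Neurog3 and 0 Chga UMIs (grey), 129 Neurog3 cells (yellow) and 89 Chga cells (blue). Spp1 and Hes1 have similar levels in the first 2 sets and are low in Chga cells, whereas Chgb, Pyy, Gcg and Iapp are highest in the Chga cells.

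Neurog3 also divided the Chga cells themselves. It was found in 31 of 89 control Chga cells, with 0, 0 and 58 UMIs in the lowest, median and highest. The 15 cells with at least 5 Neurog3 UMIs had Chgb at 10673 CPM, but Gcg at 6.58, Pyy at 72.4 and Iapp at 26.3. The 58 cells with 0 Neurog3 UMIs had Chgb at 14661, Gcg at 5689, Pyy at 4058 and Iapp at 1757 CPM. Cck ran the other way, at 2968 CPM in the former and 543 in the latter, with 1459 in the 16 cells between. Gadd45a (447 beside 54.9), Hes6 (474 beside 134) and Pax4 (204 beside 34.6) were likewise higher with Neurog3. Isl1 stood at 507 CPM with Neurog3 and 1076 without. Most of the 15 cells with Neurog3 had 0 Isl1 UMIs, and 1 cell with 47 UMIs gave most of their level. Transcripts of Gcg, Pyy and Iapp were therefore scarce in the Chga cells that still held abundant Neurog3, while Cck was not.

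The knockout-labelled Chga cells shared much of this profile against their own epithelium, but not for the acinar and tip genes. Of 10501 genes tested there, 14.9% were at least 2-fold higher than in the 446 knockout-labelled cells with 0 Chga UMIs, and 16.7% lower. All 11 measured granule genes and 4 of 4 hormones were higher. A gene of these lists that was scarce in the cells with 0 Chga UMIs could be measured only if higher in Chga cells. Those counts are therefore a description. Of 24 factors, 18 were higher and 2 lower, and all 24 G2/M genes and 19 of 20 S-phase genes were lower. Of these, 16 G2/M and 7 S-phase genes had 0 UMIs in the 23 cells. With such genes set at 3 UMIs, 18 of 24 and 17 of 20 were still at least 2-fold lower, and the G2/M median went from -3.01 to -1.51. After thinning, 0 of 21 cells had 5 UMIs of the G2/M list. Of 11 acinar and tip genes, 6 were at least 2-fold lower and 5 had a ratio above 0 (median -1.30). In the control library 10 of 11 were lower and 0 had a ratio above 0 (median -3.17). Of 4 beta-cell genes, 2 were higher and 1 lower.

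Between the libraries, the granule genes of Chga cells stood close together while several hormones did not. Of 5668 genes tested, 2.21% were at least 2-fold higher in the knockout-labelled Chga cells and 6.19% lower. Of 13 granule genes, 0 passed 2-fold either way (median -0.14). Chgb had 0, 77 and 264 UMIs in the lowest, median and highest knockout-labelled cell and stood at 12809 beside 14080.5 CPM, and Slc38a5 stood at 4758 beside 4778. The widest gaps in the granule list were Ptprn, with a log2 ratio of -0.96 (-2.04 to 0.01), Pcsk1n at 0.73 (0.45 to 0.99), Cpe at 0.69 (0.41 to 0.95) and Pcsk2 at -0.64 (-0.96 to -0.33). Of 11 exocytosis genes 0 passed 2-fold. Of 25 factors 2 were lower and 0 higher (median -0.09): Neurog3, at 214 beside 441 CPM (-1.03, at the 2-fold line), and Hhex. The knockout-labelled cells held 38 Neurog3 UMIs, 18 of them (47.4%) in 1 cell. Pax6 stood at 586 beside 702 CPM and Isl1 at 754 beside 892, with intervals of the ratio that reach across 0. The 3 lower COMPASS genes of 11 measured (Kmt2c, Hcfc1 and Men1) had 1 to 6 UMIs in the knockout-labelled cells.

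Of 11 hormones, 7 were at least 2-fold lower in the knockout-labelled cells and 0 higher. A gene was measured with at least 20 UMIs over both sets, and the control cells held 758070 UMIs beside 177611. Ghrl, Ins1, Sst and Gip passed that rule through the control cells alone, which fixed their direction. The count is therefore a description. The median of the 11 hormones was -3.20, or -1.68 with the genes at 0 set at the limit of 3 UMIs. Iapp differed across many cells. It was found in 40 of 89 control cells, with up to 177 UMIs, and in 4 of 23 knockout-labelled cells, with 1 UMI in each. Its level was 1411 beside 22.5 CPM, a log2 ratio of -5.69 (-6.99 to -4.50), and it lay between -6.05 and -5.07 over the alternatives tried. A count of at least 10 Iapp UMIs was met by 21 of 89 control cells and by 0 of 23 knockout-labelled cells (0 to 14.8%). The interval of the control share, 15.2 to 33.8%, lies just above that bound, and the embryos were not replicated.

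The other main hormones were present in both libraries. Gcg reached 10 UMIs in 5 of 23 knockout-labelled cells and 15 of 89 control cells, Pyy in 6 and 28, Cck in 5 and 25 and Gast in 3 and 9. By level Gcg stood at 1498 beside 4825 CPM (-1.68), Pyy at 1751 beside 3026 (-0.79), Cck at 783 beside 1167 (-0.57) and Gast at 653 beside 664 (-0.02). The Gcg ratio was -2.38 and the Pyy ratio -1.01 without the highest cell of each library; that of Gcg was -0.64 when the CPM of each cell was averaged and -2.64 under the stricter barcode filter. Of the 5 knockout-labelled Gcg cells, 4 also counted for Pyy and 0 for Iapp, whereas 12 of 15 control Gcg cells counted for Iapp. In all, 13 of 23 knockout-labelled cells (56.5%) and 58 of 89 control cells (65.2%, 54.3 to 75.0) held some hormone at 10 UMIs. Ghrl, Ins1, Sst, Gip and Hhex had 0 UMIs in the knockout-labelled cells, which with 3 UMIs as the limit is at least 24.7-fold, 9.76-fold, 8.28-fold, 3.28-fold and 5.86-fold lower. Ghrl, Sst and Hhex rest mostly on 1 control cell each, so that 23 cells could miss them. Ins2 stood at 33.8 beside 352 CPM, also resting on 1 control cell.

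**Figure D5:**
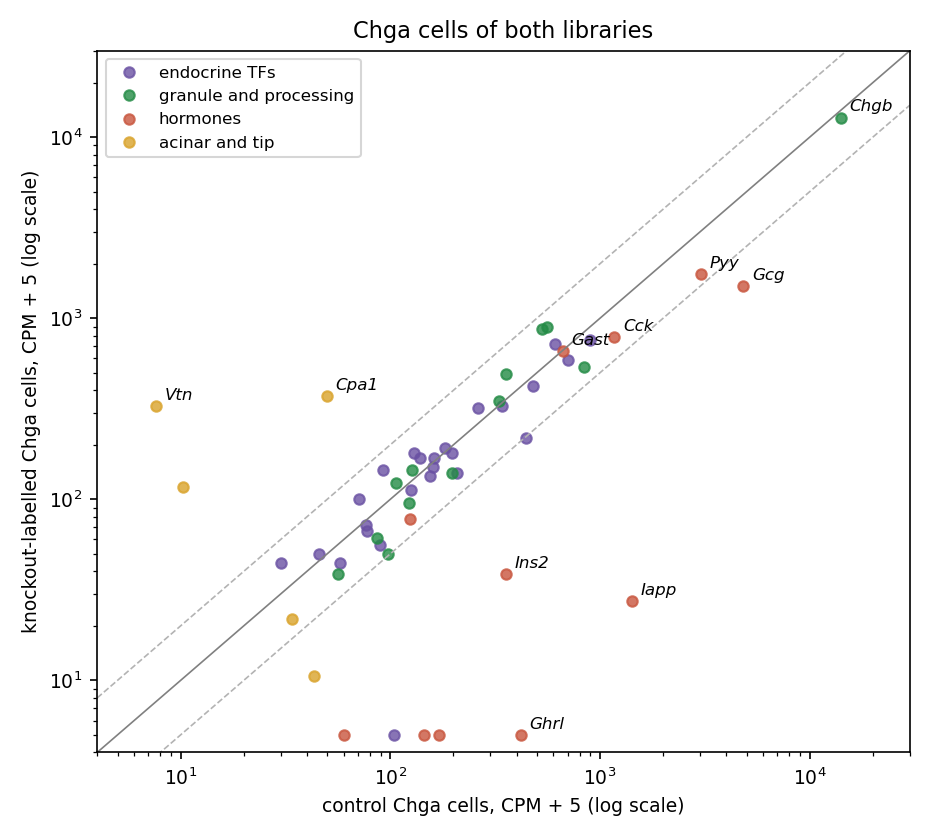
CPM plus 5 (log axes) of 4 gene lists in control (horizontal) and knockout-labelled (vertical) Chga cells; each point is a gene, the solid line marks equal levels and dashed lines 2-fold. Granule genes lie within the dashed lines, Iapp lies far below them (1411 beside 22.5 CPM), and Vtn and Cpa1 lie above.

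Of 125 genes at least 2-fold higher in the knockout-labelled cells, 3 were on the list of acinar and tip genes, of which 5 were measured in this comparison. The 8 highest ratios were Vtn, Pnliprp1, Cel, Cpa1, Clu, Cela1, Gc and Clps, between 5.42 and 2.38, and several of these encode acinar enzymes or their cofactors. They rested largely on 2 of the 23 cells, with 66 and 34 UMIs of the 8 acinar and tip markers. The first held 317 Clps, 51 Cpa1 and 33 Vtn UMIs beside 5 of Chga and 9 of Chgb, and the second held 97 Pnliprp1 UMIs beside 4 of Chga and 16 of Chgb. The doublet score marked neither cell. Without the cells with at least 10 such UMIs (2 in each library) the ratios were 1.45 for Vtn, 0.70 for Clps, 0.55 for Gc, 0.45 for Cpa1 and 0.05 for Clu. Those of Pnliprp1, Cel and Cela1 turned to -1.94, -0.36 and -0.40. Over all genes, 103 were still at least 2-fold higher without those cells.

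The trunk genes Id1, Id2 and Id3, targets of BMP signalling, had higher summed levels in the knockout-labelled Chga cells, resting in good part on single cells. Id2 was found in 12 of 23 cells (0, 1 and 83 UMIs) and in 42 of 89 control cells (0, 0 and 21), at 783 beside 195 CPM (1.98, 1.64 to 2.31). One cell held 59.7% of the knockout-labelled Id2 UMIs. Id3 stood at 242 beside 71.2 CPM (1.70) and Id1 at 95.7 beside 29.0 (1.57), with 48.8% and 52.9% of their UMIs in the acinar-rich cell named above. Without the highest cell of each library the ratios were 0.95 for Id2, 1.03 for Id3 and 1.08 for Id1. Without the cells with at least 10 acinar and tip UMIs, that of Id3 was 0.49 and that of Id1 0.55, while that of Id2 was 1.97. In epithelial cells with 0 Chga UMIs the same ratios between libraries were 0.12 for Id2, 0.17 for Id3 and 0.30 for Id1. Spp1, the lowest trunk gene, stood at 5.63 beside 79.2 CPM, most of the latter from the cell marked as a doublet.

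The authors' deposited table gives genes for 7 clusters, and its cluster 1 has the highest values for Chga. In the authors' deposited table, Chga was detected in 96.6% of the cells of cluster 1 and 7.1% of the others, Chgb in 98.9% and 13.2%, Isl1 in 94.3% and 4.4%, Pyy in 72.7% and 6.4%, Iapp in 53.4% and 1.5%, and Gcg in 35.2% and 1.5%. Neurog3 was detected in 18.2% and 31.9% in the authors' deposited table, with an average log fold of -1.35 (base not given). Of 955 genes with a positive fold for that cluster in the authors' deposited table, 951 were tested here and 662 were at least 2-fold higher in control Chga cells. Of the 15 highest genes named here 13 had a positive fold in the authors' deposited table, and all 15 lowest had a negative one. Which cells formed the cluster is not given there, so the table and the Chga cells may share members.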

How the data were processed

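Cells of E13.5 mouse pancreas, 1 control and 1 knockout-labelled embryo, were measured by 3' single-cell RNA sequencing. The authors deposited a matrix of UMI counts per library over 27998 genes. The submitters' processing notes name Cell Ranger, Seurat and the builds GRCm38 and mm10, with no role for each. The authors' deposited table of cluster genes holds log folds, shares of cells as fractions, and p-values that were not used. The base of the log folds in the deposited table is not stated, and natural log is the default of the named Seurat versions. Per the file headers, the matrices hold raw counts; depth per set is given with the results.

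Barcodes were gated as the opening states, with members and gene lists chosen with earlier results of these data known. UMIs were summed over the cells of a set and given as counts per 1000000 UMIs of the set (CPM). Ratios are log2((CPM + 5)/(CPM + 5)) over genes with at least 20 UMIs in the pair of sets, with intervals joined from exact Poisson bounds. Shares have exact Clopper-Pearson intervals at 95%, and a count of 0 is read as up to 3 UMIs or cells. Each group is 1 library, so no test, standard error or adjusted p was computed, and called means at least 2-fold. Named genes were the 15 highest and 15 lowest ratios in control cells with at least 50 CPM on one side, and the 8 highest and 8 lowest between libraries. Doublets were scored by a nearest-neighbour search (30 neighbours, 30 components) against 2 simulated doublets per cell, and 120 control and 73 knockout-labelled barcodes were removed in an alternative only. On simulated counts for the comparison of control Chga cells with Chga 0 cells (5118 genes), the intervals held the true value for 94.0% of 2-fold changed, 94.0% of 4-fold changed and 96.0% of unchanged genes. The 2-fold rule called 33.0% of the 2-fold and 98.0% of the 4-fold changed genes. Other settings tried were 17 fixed at the outset and 2 chosen after seeing the data. Python 3.11.15, NumPy 2.4.6, SciPy 1.17.1, pandas 2.3.3, scikit-learn 1.9.0 and matplotlib 3.10.9 were used. Results for some genes that met the rule for named genes are not reported here.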

Additional observations from a re-analysis of the deposited data

Results flagged for a closer look

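Clps, the colipase gene of acinar cells, moved in opposite directions in the 2 libraries. In control Chga cells its log2 ratio over cells with 0 Chga UMIs was -1.58, and in knockout-labelled Chga cells it was 1.39. The difference was not tested. One knockout-labelled cell held 317 of the 444 Clps UMIs (71.4%), and without the cells with at least 10 acinar and tip UMIs the ratio of knockout-labelled over control Chga cells was 0.70 in place of 2.38.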

How the results depend on the processing

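No paired analysis was possible because each group is 1 library, and leaving out a replicate was likewise not possible. Among the recomputed values of single genes, lists and hormone shares, 1210 stayed within the interval or spread of the reported value, 296 moved out of it and 5 of at least 2-fold changed sign; unless a value shows it, the cause was not tested. The control share of Chga cells was 18.1% with at least 1 Chga UMI and 8.65% after thinning. The count of genes at least 2-fold higher in control Chga cells was 835 under median-of-ratios scaling, 674 with a pseudocount of 20 and 909 when only genes with at least 100 UMIs were tested. The count of lower genes was 1718 under median-of-ratios scaling, 1742 without technical genes in the total, 1769 with a pseudocount of 1, 438 with a pseudocount of 20 and 566 with at least 1 Chga UMI. Between libraries, 44 genes were higher and 121 lower with a pseudocount of 20, 441 and 1145 when genes with at least 5 UMIs were tested, and 8 and 22 with at least 100. Sign changed between libraries for Cpa1 (-0.82 with at least 1 Chga UMI) and for the median of the acinar and tip markers (-0.50 with at least 5 Chga UMIs). It also changed for Pnliprp1 (-1.94), Cel (-0.36) and Cela1 (-0.40) without the cells with at least 10 acinar and tip UMIs. Without cells with a Neurog3 UMI the control log2 ratios were 9.79 for Gcg, 8.42 for Pyy and 3.62 for Ghrl, and 12.1% of the cells held at least 10 Cck UMIs. Depth limits the 23 knockout-labelled cells most: their 177611 UMIs put 1 UMI at 5.63 CPM, so low genes could be missed there.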
